A study of Mus musculus with 8 samples.

Results

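Interferon-stimulated genes are a group of genes whose transcription rises when a cell receives an interferon, and 40 of them were followed here in mouse tuft cells sorted from the small intestine. The 40 were taken by name from the rows of a raw count table of 53655 gene symbols, and all 40 had a row. Tuft cells are rare chemosensory epithelial cells that make the cytokine IL-25, and some of them also express Chat, the gene of the enzyme that makes acetylcholine. Naïve animals of the genotype Il25-RFP/+;Chat-GFP(Tg+) gave epithelial cells that were sorted as CD45-negative, EPCAM-positive and Il25-RFP-positive, and then split by the green reporter. GFP-negative cells (Chat-neg) gave 4 RNA-seq libraries and GFP-positive cells (Chat-pos) gave 4. Both groups carry the same red reporter allele and the same green transgene, so that the green signal is that of a transgene and not of the Chat locus itself, and the labels name no infection or treatment. The question addressed is which transcripts set apart the tuft cells in which the Chat reporter is on. The labels do not say which animal gave which library, so a p-value here measures the spread between libraries, part of which may be technical.

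Interferons signal through receptors at the cell surface to the kinases JAK1, JAK2 and TYK2 and from there to STAT proteins. Type I and type III interferons act mainly through a complex with STAT2 and IRF9 that binds the interferon-stimulated response element (ISRE), and interferon gamma acts mainly at the gamma-activated site (GAS). The induced proteins include sensors of foreign nucleic acid, antiviral proteins such as the IFIT, OAS and ISG15 families, and large GTPases (GBP) and immunity-related GTPases (IRG) that act on vacuoles that hold intracellular pathogens. Many of these genes also have a low level of expression in cells that have met no virus.

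Depth differed between the groups. Chat-neg 1 had 87642 counts in named genes, the other Chat-neg libraries 610756 to 1176880 and the Chat-pos libraries 1757401 to 2541955. A single count in Chat-neg 1 was therefore worth 10.36 CPM (counts per 1000000 counts in named genes, scaled by TMM factors), against 1.554 or less in every other library. All 10 tuft cell markers examined had counts in every library, and their summed level was 8577 to 16495 CPM in Chat-neg and 21300.2 to 22450.2 CPM in Chat-pos. Chat itself was at 112 ± 24.2 CPM in Chat-neg and 325 ± 33.8 CPM in Chat-pos (mean ± SD, n = 4). Chat-pos 2 and 3 held 49589.7 and 28871 CPM of Paneth cell markers, against 2797 CPM or less in the other libraries. Rows without a gene name, left out of these totals, held 67.8% to 88.4% of all counts in Chat-neg and 58.6% to 64.6% in Chat-pos, and their part in the results was not tested. In sorted bulk samples, fewer cells that express a gene and less RNA per cell cannot be told apart.

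Of the 40 genes, 32 passed the filter on low counts, and 10 of them were higher in Chat-pos and 0 lower at an adjusted p under 0.05 (edgeR's quasi-likelihood test, Benjamini-Hochberg over 8919 genes). Over all genes tested, 3.62% were called higher and 2.87% lower. The members were chosen with earlier results of these data known, so no share given here is a test of the list. The 10 genes were Irf1, Irf7, Ddx58, Oas1a, Oas1g, Oasl2, Isg15, Bst2, Xaf1 and Gbp8. Of the 32, 31 had a positive log2 difference (Chat-pos minus Chat-neg), against 48.5% of all genes tested, and the median was 0.67 beside -0.02 over all genes. At an unadjusted p under 0.05, 19 of the 32 were higher and 0 lower, against 10.9% higher over all genes. In 13 of the 32 every Chat-pos library lay above every Chat-neg library, against 9.23% of all genes tested, and in 0 the reverse held, against 4.72%. The 3 non-overlapping genes that were not called were Ifih1, Dhx58 and Ifi35. None of the 32 had passed the filter through the Chat-pos libraries alone. Of the 10 tuft cell markers, 9 had a positive log2 difference, 4 were called higher and 6 did not overlap, with a median of 0.47. Of 36 further interferon-stimulated genes tested, 28 had a positive log2 difference and 1 was called, with a median of 0.34. Whether the members differ from either list was not tested. Scaling by total counts moved the median over all genes to -0.14, and that of the members to 0.55, with 29 of the 32 positive. Under that scaling 7 of the 10 genes were called, and Irf1, Ddx58 and Oas1g were not.

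**Figure D1:**
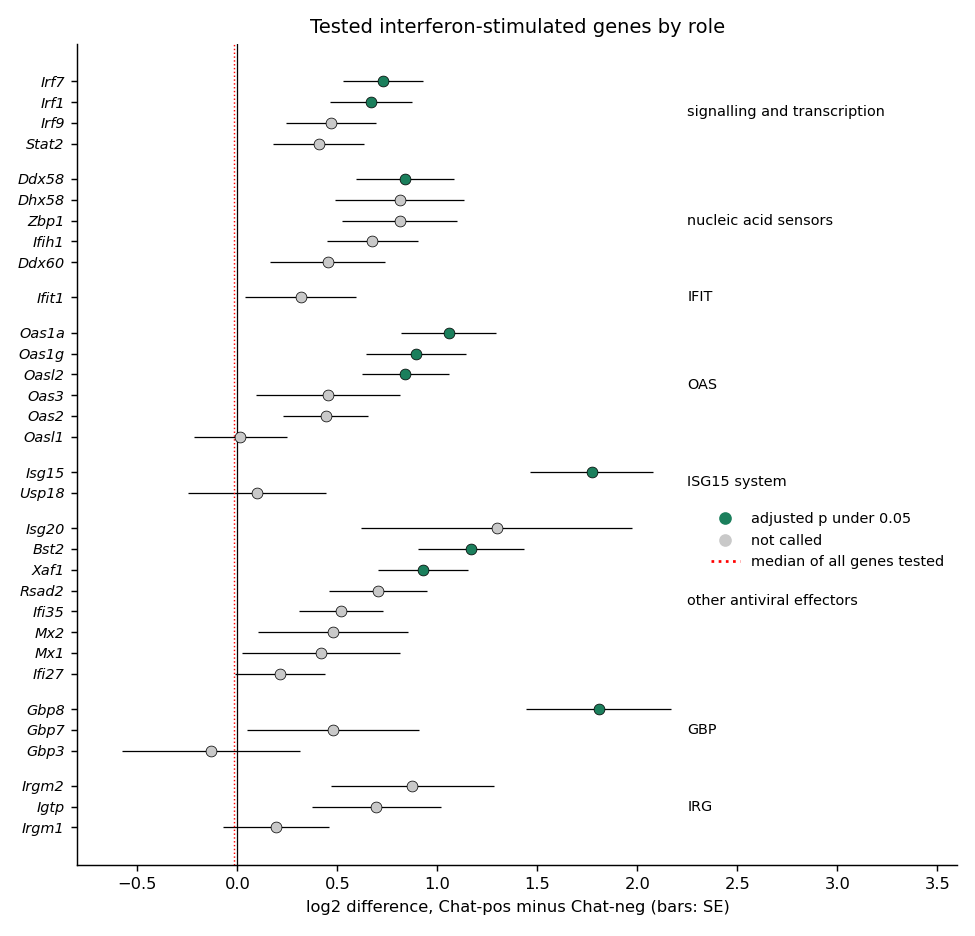
Log2 difference (Chat-pos minus Chat-neg) of the 32 tested interferon-stimulated genes, grouped by role, with bars for the standard error, green points for an adjusted p under 0.05 and a dotted line at the median of all genes tested. Of the 32 points 31 lie to the right of 0, with Gbp8 and Isg15 furthest out at 1.81 and 1.77 and Gbp3 at -0.13.

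Promoter sequence was compared because the families are known to answer to different interferon elements. RefSeq windows (GRCm38.p6, 250 bases before to 50 bases after a gene's start) were matched for 30 of the 40 genes. The letters GAAA, 2 bases of any kind and GAAA again, the core of an ISRE, were searched on both strands and stood in the window of 20 of the 30, which is 66.67%, against 3.993% of 27025 genes with a window. The letters TTCNNNGAA, a GAS, were searched in the same way and stood in 10 of the 30, which is 33.33%, against 9.554% of all genes. Among the antiviral genes (IFIT, OAS and Isg15) with a window, 7 of 10 held the ISRE letters and 2 of 10 the GAS letters. Among the GTPase genes 7 of 7 held the ISRE letters and 4 of 7 the GAS letters. No window was matched for Gbp8, the only GTPase gene called, and Gbp2 and Gbp5 among the 7 were too low to test. Irf7, Oasl2 and Xaf1 were called and hold neither motif in their windows, while Gbp7, Igtp and Irgm2 hold both and were not called. Such a match describes the sequence and says nothing of binding in these cells.

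The stretches that hold the matches are shown for 5 called genes and, beside them, for 4 uncalled genes. Ddx58, also called, has an ISRE match in its window that is not shown. Each runs 5′ to 3′ on the gene's own strand, with matches to either motif in capitals. Overlapping matches run together, and an ISRE on the opposite strand reads TTTC, 2 bases, TTTC. The called antiviral genes Isg15, at chr4:156200863-156200908 on the minus strand, Oas1a, at chr5:120907526-120907635 on the minus strand, and Oas1g, at chr5:120887614-120887643 on the minus strand, have 3, 2 and 2 ISRE matches. Oas1a also has the GAS letters further upstream, and the last stretch before the start is alike in Oas1a and Oas1g.
Isg15: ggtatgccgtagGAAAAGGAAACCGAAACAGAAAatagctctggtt
Oas1a: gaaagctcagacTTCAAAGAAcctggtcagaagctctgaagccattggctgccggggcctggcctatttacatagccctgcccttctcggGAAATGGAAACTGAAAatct
Oas1g: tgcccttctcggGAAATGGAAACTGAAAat
The called gene Bst2, at chr8:71537575-71537620 on the minus strand, has GAS letters that run into 2 ISRE matches, and Irf1, at chr11:53769912-53769944 on the plus strand, has a GAS match only.
Bst2: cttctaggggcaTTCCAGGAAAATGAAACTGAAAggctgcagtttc
Irf1: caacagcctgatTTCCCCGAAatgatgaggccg
The uncalled antiviral gene Ifit1, at chr19:34640773-34640825 on the plus strand, has 2 ISRE matches, both on the opposite strand.
Ifit1: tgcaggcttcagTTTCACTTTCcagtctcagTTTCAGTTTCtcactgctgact
The uncalled GTPase genes Igtp, at chr11:58199499-58199543, and Irgm2, at chr11:58214890-58214934, both on the plus strand, carry a GAS followed by an ISRE match in nearly the same letters. Irgm1, at chr11:48871423-48871462 on the minus strand, has 2 ISRE matches and no GAS match.
Igtp: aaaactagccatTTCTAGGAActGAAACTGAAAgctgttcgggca
Irgm2: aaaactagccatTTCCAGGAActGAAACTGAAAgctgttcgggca
Irgm1: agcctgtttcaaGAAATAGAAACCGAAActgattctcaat

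The counts of calls by role stand beside 3.62% called higher over all genes tested. Among the genes of signalling and transcription, 2 of 4 were higher in Chat-pos. Irf7, a transcription factor that amplifies the interferon response, stood at 218, 264, 298 and 259.6 CPM in Chat-neg 1 to 4 and at 475, 411, 516 and 387 CPM in Chat-pos 1 to 4. All Chat-pos values lay above all Chat-neg values. Its log2 difference was 0.73 ± 0.20 (SE; edgeR adjusted p = 0.0248). Irf1, a transcription factor known as a target of interferon gamma, stood at 249, 179, 185 and 208 CPM in Chat-neg 1 to 4 and at 310.3, 294, 344 and 364 CPM in Chat-pos 1 to 4. The highest Chat-neg value was that of the shallow library, and the groups did not overlap. Its log2 difference was 0.67 ± 0.20 (edgeR adjusted p = 0.0438), the closest to the threshold among the called genes. Irf9 and Stat2, the DNA-binding partner and a STAT of the ISRE complex, had log2 differences of 0.47 ± 0.22 and 0.41 ± 0.23, with overlapping groups, and were not called (edgeR adjusted p = 0.230 and 0.321).

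Among the sensors of nucleic acid, 1 of 5 was higher. Ddx58, which encodes the RNA sensor RIG-I, stood at 10.4, 49.4, 48.1 and 49.7 CPM in Chat-neg 1 to 4 and at 88.0, 90.6, 83.6 and 70.0 CPM in Chat-pos 1 to 4. The value of Chat-neg 1 rests on 1 count and lies far below the other Chat-neg libraries, which agree closely, and the groups did not overlap. Its log2 difference was 0.84 ± 0.24 (edgeR adjusted p = 0.0353), and 0.76 without Chat-neg 1, where it was still called. Ifih1, which encodes the RNA sensor MDA5, stood at 41.4, 53.1, 68.3 and 46.6 CPM in Chat-neg 1 to 4 and at 98.3, 76.6, 95.7 and 88.6 CPM in Chat-pos 1 to 4. Its groups did not overlap either, with a log2 difference of 0.67 ± 0.23, but it missed the threshold (edgeR adjusted p = 0.0738). Dhx58, which encodes the regulator LGP2, and Zbp1, a sensor of Z-form nucleic acid, both had a log2 difference of 0.81 (SE 0.32 and 0.29) and were not called (edgeR adjusted p = 0.136 and 0.0908). Ddx60, a helicase with antiviral activity, was at 0.45 ± 0.29 with overlapping groups.

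The IFIT genes encode proteins that bind foreign RNA and block its translation, and 0 of the 4 were called. Only Ifit1 passed the filter. It stood at 31.1, 40.8, 60.7 and 46.6 CPM in Chat-neg 1 to 4 and at 77.0, 42.7, 86.8 and 38.9 CPM in Chat-pos 1 to 4. Chat-pos 1 and 3 were high and Chat-pos 2 and 4 lay within the Chat-neg range, so the Chat-pos libraries were split among themselves. The log2 difference was 0.32 ± 0.28, with a 95% interval from -0.23 to 0.86 (edgeR adjusted p = 0.576). Ifit2 stood at 20.7, 7.41, 2.53 and 3.11 CPM in Chat-neg 1 to 4 and at 9.77, 3.08, 4.18 and 7.04 CPM in Chat-pos 1 to 4. The highest of these values, in Chat-neg 1, is 2 counts, and the groups overlapped. Ifit3 had 9 counts over the Chat-neg and 29 over the Chat-pos libraries, and Ifit3b had 1 and 6. Of the 74-base stretches in Ifit3 transcripts, 41.51% also occur in Ifit3b, so the split of reads between these genes is uncertain.

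The OAS genes encode enzymes, and related proteins without the enzyme activity, that answer double-stranded RNA, and 3 of 6 were higher in Chat-pos. Oas1a stood at 31.1, 37.0, 73.4 and 62.2 CPM in Chat-neg 1 to 4 and at 108, 104, 127 and 131 CPM in Chat-pos 1 to 4. Oas1g stood at 31.1, 27.2, 37.1 and 34.2 CPM in Chat-neg 1 to 4 and at 55.6, 57.6, 65.9 and 69.2 CPM in Chat-pos 1 to 4. Both had non-overlapping groups, with the Chat-neg values of Oas1a more spread out than those of Oas1g. The log2 differences were 1.06 ± 0.24 for Oas1a and 0.89 ± 0.25 for Oas1g (edgeR adjusted p = 0.00598 and 0.0263). Of the 74-base stretches in Oas1a transcripts, 47.9% also occur in Oas1g, so these genes are not independent of each other in the counts. Oasl2, an OAS-like gene, stood at 93.2, 219, 226 and 222 CPM in Chat-neg 1 to 4 and at 441, 308, 374 and 340.5 CPM in Chat-pos 1 to 4. Chat-neg 1, with 9 counts, lay below the other Chat-neg libraries and Chat-pos 1 was the highest of all. On the log2 scale it differed by 0.84 ± 0.22 (edgeR adjusted p = 0.0166), and 0.72 without Chat-neg 1, where it was still called.

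The other OAS genes were not called. Oas2 stood at 93.2, 80.3, 118 and 148 CPM in Chat-neg 1 to 4 and at 135, 154, 189 and 145 CPM in Chat-pos 1 to 4. Chat-neg 4 reached into the Chat-pos range, and the log2 difference was 0.44 ± 0.21 (edgeR adjusted p = 0.232). Oas3 had a log2 difference of 0.45 ± 0.36. Oasl1, the other OAS-like gene, had a log2 difference of 0.01 ± 0.23, with a 95% interval from -0.44 to 0.47, whose upper end lies below the estimates for Oas1a, Oas1g and Oasl2. The difference between OAS genes was not itself tested.

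Isg15, a ubiquitin-like protein that is attached to other proteins after interferon, was 1 of the 2 genes with the largest differences. It stood at 10.4, 8.64, 20.2 and 18.7 CPM in Chat-neg 1 to 4 and at 45.2, 52.8, 63.2 and 57.2 CPM in Chat-pos 1 to 4. The lowest Chat-pos value was above the highest Chat-neg value by a wide margin. The log2 difference was 1.77 ± 0.31, which is 3.41-fold (edgeR adjusted p = 0.000543), on 44 counts over the Chat-neg and 468 over the Chat-pos libraries. Usp18, the protease that removes ISG15 and a brake on the type I receptor, stood at 41.4, 28.4, 61.6 and 23.3 CPM in Chat-neg 1 to 4 and at 64.1, 24.6, 52.9 and 31.1 CPM in Chat-pos 1 to 4. The groups overlapped over almost their whole range, with a log2 difference of 0.10 ± 0.34 and a 95% interval from -0.58 to 0.77.

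Among the other antiviral effectors 2 of 9 were higher and 8 were tested. Bst2, which encodes tetherin, a membrane protein that holds budding virus at the cell, stood at 20.7, 23.5, 52.3 and 28.0 CPM in Chat-neg 1 to 4 and at 78.8, 68.2, 96.1 and 72.5 CPM in Chat-pos 1 to 4. The highest Chat-neg library, Chat-neg 3, was still below all Chat-pos libraries. On the log2 scale Bst2 differed by 1.17 ± 0.27 (edgeR adjusted p = 0.00667). Xaf1, a gene linked to cell death, stood at 72.5, 55.6, 78.4 and 52.8 CPM in Chat-neg 1 to 4 and at 156, 99.4, 121 and 121 CPM in Chat-pos 1 to 4. The groups did not overlap, and Chat-pos 1 was the highest. The log2 difference was 0.93 ± 0.23 (edgeR adjusted p = 0.0103).

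Ifi35 and Ifi27 are the most abundant of these effectors that were not called. Ifi35 stood at 41.4, 92.6, 122 and 96.4 CPM in Chat-neg 1 to 4 and at 149, 138, 145 and 132 CPM in Chat-pos 1 to 4. Its groups did not overlap, with a log2 difference of 0.52 ± 0.21 (edgeR adjusted p = 0.147), and an antisense gene covers 16.8% of its exon bases, which reads without strand cannot separate. Ifi27 stood at 93.2, 270.4, 267 and 255 CPM in Chat-neg 1 to 4 and at 299.9, 224, 267 and 315 CPM in Chat-pos 1 to 4. Apart from Chat-neg 1, the libraries of both groups covered the same range, and the log2 difference was 0.21 ± 0.22. Rsad2, which encodes viperin, an enzyme that makes a chain-terminating nucleotide, was at 0.70 ± 0.25 (edgeR adjusted p = 0.0843). Mx1 and Mx2, dynamin-like GTPases that act on viruses, were at 0.42 ± 0.39 and 0.48 ± 0.38, and Isg20, an exonuclease, was at 1.30 ± 0.68 on 9 counts over the Chat-neg libraries. Ifi44 did not pass the filter, with 8 counts over the Chat-neg and 49 over the Chat-pos libraries.

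**Figure D2:**
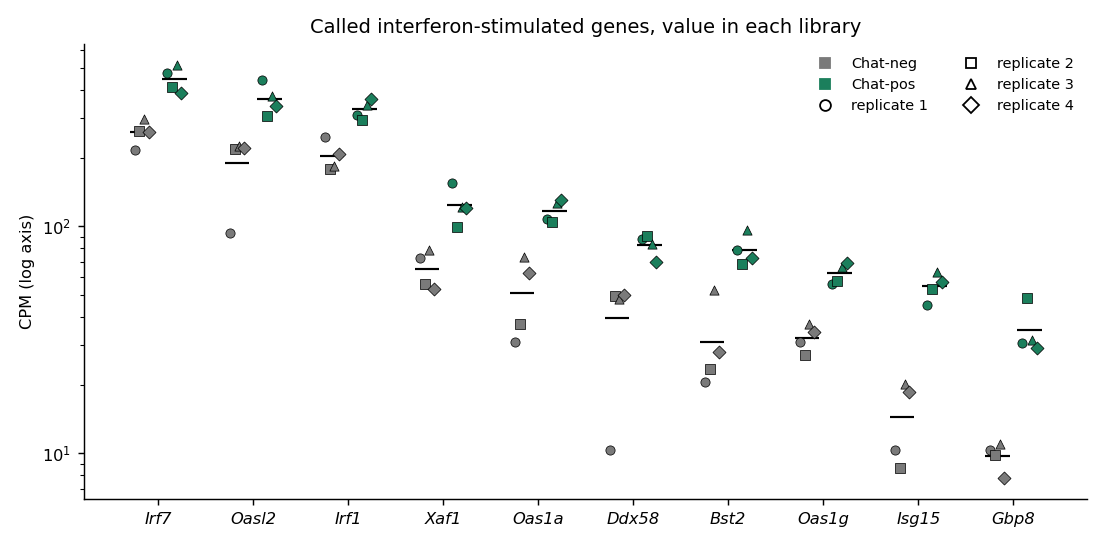
CPM on a log axis of the 10 called genes in each of the 8 libraries, with Chat-neg and Chat-pos points side by side and a line at each group's mean. For every gene the Chat-pos points lie above the Chat-neg points, and Ddx58 and Oasl2 have a low Chat-neg point at 10.4 and 93.2 CPM, both from Chat-neg 1.

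Of the GBP genes, 1 of 6 was higher and 3 passed the filter. Gbp8 stood at 10.4, 9.88, 11.0 and 7.77 CPM in Chat-neg 1 to 4 and at 30.5, 48.4, 31.6 and 29.0 CPM in Chat-pos 1 to 4. The Chat-neg libraries were close together, and Chat-pos 2 stood above the other Chat-pos libraries. The log2 difference was 1.81 ± 0.36, which is 3.50-fold (edgeR adjusted p = 0.00252), on 27 counts over the Chat-neg and 298 over the Chat-pos libraries. Of the 74-base stretches in its transcripts 8.218% also occur in other genes, namely Gbp9, Gbp10 and Gbp11. Gbp7, which lies in the other Gbp cluster, on chromosome 3, stood at 0, 18.5, 21.1 and 7.77 CPM in Chat-neg 1 to 4 and at 31.8, 9.68, 24.1 and 21.5 CPM in Chat-pos 1 to 4. Its groups overlapped, with a log2 difference of 0.48 ± 0.43. Gbp3 was at -0.13 ± 0.45, the 1 negative value among the 32. The remaining Gbp2, Gbp5 and Gbp6 had 1, 2 and 1 counts over the Chat-neg libraries and 18, 1 and 7 over the Chat-pos libraries.

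None of the 4 IRG genes was called, and 3 were tested. Irgm1, a regulator of the family that has a role in autophagy in mice, stood at 72.5, 29.6, 58.2 and 37.3 CPM in Chat-neg 1 to 4 and at 45.2, 47.5, 55.3 and 61.7 CPM in Chat-pos 1 to 4. The groups overlapped, and the highest value, in Chat-neg 1, rests on 7 counts. Its log2 difference was 0.19 ± 0.27, with a 95% interval from -0.33 to 0.72. Igtp, also known as Irgm3, stood at 20.7, 21.0, 31.2 and 15.5 CPM in Chat-neg 1 to 4 and at 41.5, 20.7, 39.5 and 50.9 CPM in Chat-pos 1 to 4. Chat-pos 2 was at the Chat-neg level and the other Chat-pos libraries lay above it, with a log2 difference of 0.70 ± 0.32 (edgeR adjusted p = 0.211). Irgm2 was at 0.87 ± 0.41 (edgeR adjusted p = 0.214), and shares 4.39% of its exon bases with Igtp on the same strand. Iigp1 had 0 counts in all Chat-neg libraries and 2 counts in Chat-pos.

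Per kilobase of annotated exon, the mean level in Chat-pos was highest for Ifi27 at 188 CPM per kb, followed by Irf7 at 118, Bst2 at 87.4, Irf1 at 82.5, Ifi35 at 81.7 and Isg15 at 72.2. In Chat-neg, on the same scale, Ifi27 was at 151, Irf7 at 68.8, Irf1 at 51.6, Ifi35 at 51.1, Bst2 at 34.5 and Isg15 at 19.1. Among the GTPase genes the highest in Chat-pos was Igtp at 18.9 CPM per kb, with Gbp8 at 10.1 and Irgm1 at 9.02. The OAS genes ran from Oas3 at 3.62 to Oas1a at 62.3 CPM per kb in Chat-pos.

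Set against each other, the antiviral genes and the GTPase genes had similar medians and different counts of calls. Of the 11 antiviral genes 8 were tested, 4 were higher and the median log2 difference was 0.65. Of the 10 GTPase genes 6 were tested, 1 was higher and the median was 0.59. Over all genes tested, 3.62% were called higher. Mean levels over all 8 libraries ran from 21.0 to 278 CPM for the tested antiviral genes. They ran from 14.0 to 50.9 CPM for the tested GTPase genes, and the difference in calls was not tested. The summed level of the 11 antiviral genes was 363, 529, 662 and 623 CPM in Chat-neg 1 to 4 and 1027, 812, 1024 and 883 CPM in Chat-pos 1 to 4. The summed level of the 10 GTPase genes was 124, 121, 149 and 85.5 CPM in Chat-neg 1 to 4 and 197, 165, 192 and 195 CPM in Chat-pos 1 to 4. Neither sum overlapped between the groups, and the ratio of the means was 1.72 for the antiviral and 1.56 for the GTPase genes. The summed tuft cell markers, also without overlap, had a ratio of 1.60. The members were chosen with results of these data known, so no test was made of a sum.

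Each sum was also formed without single members. Without its most abundant member, Oasl2, the antiviral ratio was 1.61, and without Irgm1, its most abundant member, the GTPase ratio was 1.91, both with no overlap between the groups. Without Isg15 the antiviral sum ran from 352 to 642 CPM in Chat-neg and from 759 to 982 CPM in Chat-pos, a ratio of 1.66 with no overlap. Without Gbp8 the GTPase sum ran from 77.7 to 138 CPM in Chat-neg and from 117 to 167 CPM in Chat-pos, a ratio of 1.38, and the groups overlapped at Chat-pos 2 and Chat-neg 3. The sums without Isg15 and Gbp8 were formed after the values were seen. The GBP sum alone did not overlap (20.7 to 50.6 CPM against 59.2 to 90.4 CPM), whereas the IRG sum did (57.5 to 104 CPM against 88.0 to 136 CPM), as did the IFIT sum (51.3 to 67.5 CPM against 48.4 to 97.7 CPM). Within a library, the antiviral sum was 2.92, 4.37, 4.44 and 7.29 times the GTPase sum in Chat-neg 1 to 4 and 5.22, 4.91, 5.32 and 4.51 times in Chat-pos 1 to 4. The Chat-pos ratios fell within the Chat-neg range. The lowest and highest ratios belong to Chat-neg 1 and Chat-neg 4, whose GTPase sums rest on 12 and 55 counts.

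**Figure D3:**
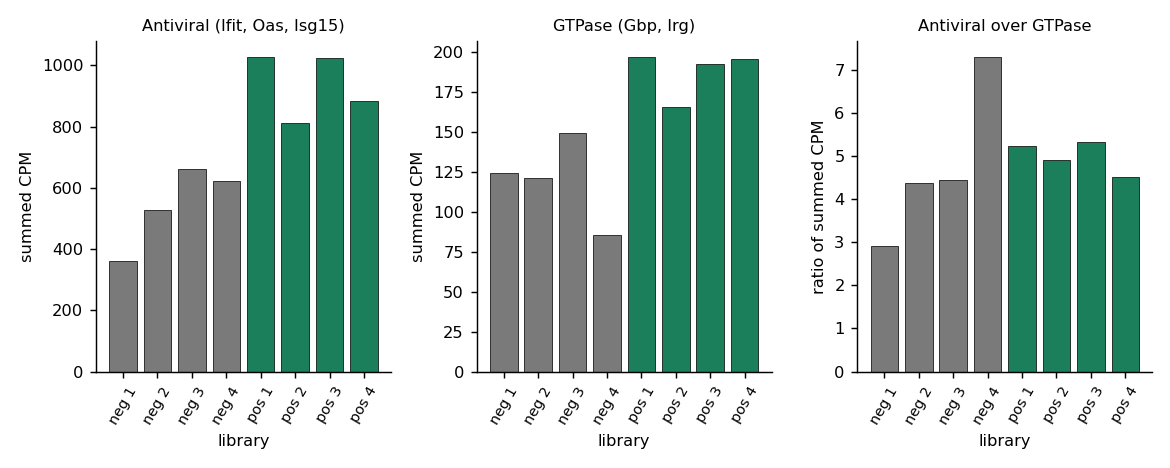
Summed CPM of the antiviral genes, summed CPM of the GTPase genes and the ratio of these sums in each of the 8 libraries, as bars from 0. Both sums are higher in all Chat-pos libraries than in any Chat-neg library, while the ratio runs from 2.92 to 7.29 in Chat-neg and from 4.51 to 5.32 in Chat-pos.

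Many of the calls were lost when 1 library was left out, but the direction of none of the 10 called genes changed. Such a fit also holds fewer samples, and this was not separated from the influence of the library left out. Without Chat-neg 2 only Isg15 and Gbp8 were called, 2 of the 10, while the median of the members was 0.63 and 1.41% of all genes were called higher. Without Chat-neg 4 there were 5 calls, beside 2.41% of all genes. Without Chat-pos 1 or Chat-pos 3 there were 6 each, beside 3.03% and 2.61% of all genes. Without Chat-neg 1, the shallow library, there were 11, the 10 and Zbp1, beside 3.7% of all genes. Without Chat-pos 2 and Chat-pos 3, the libraries with Paneth cell transcripts, there were 6 calls, namely Oas1a, Oasl2, Isg15, Bst2, Xaf1 and Gbp8, beside 2.66% of all genes, and the median was 0.78. Isg15 and Gbp8 kept their calls in all 8 fits that each left out 1 library, with log2 differences from 1.54 to 2.06 and from 1.61 to 1.94.

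Oas1a and Bst2 lost the call without Chat-neg 2 alone, at log2 differences of 0.90 and 1.01 (edgeR adjusted p = 0.0616 and 0.0628), and without Chat-neg 3 Bst2 stood at 1.64. Oasl2 lost it without Chat-neg 2 or Chat-pos 1, at 0.92 and 0.74. Xaf1 lost it without Chat-neg 2 or Chat-neg 4, at 0.87 and 0.85. Irf7 lost it without Chat-neg 2, Chat-neg 4, Chat-pos 1 or Chat-pos 3, at 0.75, 0.74, 0.70 and 0.68. Oas1g lost it without Chat-neg 2, Chat-neg 4, Chat-pos 3 or Chat-pos 4, at 0.81, 0.93, 0.89 and 0.84. Ddx58 kept the call in the fits without Chat-neg 1 and without Chat-pos 4 only, and Irf1 in the fit without Chat-neg 1 only, at 0.78.

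**Figure D4:**
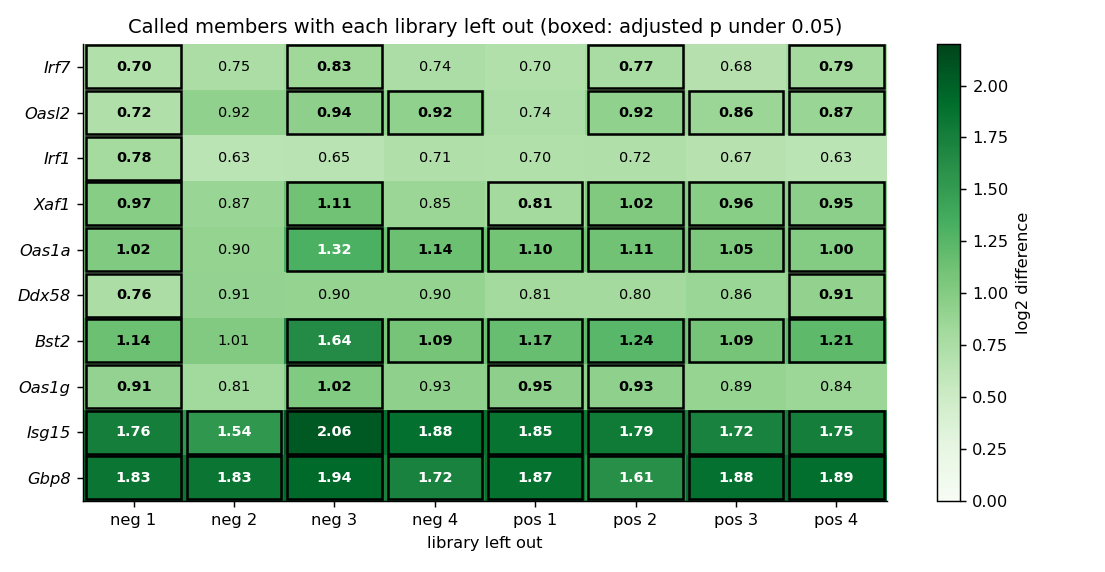
Log2 difference of the 10 called genes (lines) in each of 8 fits that left out 1 library (columns), with a box where the adjusted p was under 0.05. Isg15 and Gbp8 are boxed in all columns, the column without Chat-neg 2 has 2 boxes, and the values in a line run from 0.63 to 0.78 for Irf1, from 1.54 to 2.06 for Isg15 and, the widest, from 1.01 to 1.64 for Bst2.

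The libraries also differed in how many of the 32 tested genes they led. Chat-neg 1 had the lowest value of its group in 16 genes, and Chat-neg 3 the highest of its group in 18. In Chat-pos, libraries 1 and 3 were highest of the group in 12 and 10 genes, and libraries 2 and 4 lowest in 11 and 13. Chat-pos 3 was lowest of its group in 0 genes. Chat-pos 1, the library with the highest antiviral sum, had 561 CPM of Paneth cell markers, and Chat-pos 3, with nearly the same sum, had 28871 CPM.

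Markers of other cells that could carry interferon-stimulated transcripts were summed in each library, although the CD45-negative gate should remove blood cells. Ptprc, which encodes CD45, was itself higher in Chat-pos, at 218, 268, 283 and 295 CPM in Chat-neg 1 to 4 and at 620.0, 483, 474 and 627 CPM in Chat-pos 1 to 4. Its groups did not overlap, with a log2 difference of 0.99 ± 0.20 (edgeR adjusted p = 0.00313). The 9 T cell markers summed to 205 to 454 CPM in Chat-neg, to 431 CPM in Chat-pos 2 and to 11.2 to 13.9 CPM in the other Chat-pos libraries, where Cd3e, Cd3d and Cd8a were at 0. The 8 markers of macrophages and dendritic cells summed to 138 to 331 CPM in Chat-neg and to 208, 262, 638 and 675 CPM in Chat-pos 1 to 4. Most of this was Cd74 and H2-Aa, while C1qa had 1, 0, 2 and 20 counts and Csf1r 1, 0, 2 and 11 counts in Chat-pos 1 to 4. In the same libraries C1qb had 3, 8, 11 and 66 counts, Lyz2 7, 8, 26 and 42, and Cd68 2, 5, 8 and 20. Their means were 0.78, 2.45 and 0.63 CPM in Chat-neg and 9.45, 9.32 and 3.86 CPM in Chat-pos. Itgax went the other way, at 5.06 CPM in Chat-neg and 1.02 CPM in Chat-pos. Of the 4 markers of plasmacytoid dendritic cells, known for making type I interferon, Siglech was at 0 in all libraries, and the sum was 28.4 to 82.9 CPM in Chat-neg and 28.3 to 39.7 CPM in Chat-pos. Among other epithelial cells, the 8 enterocyte markers summed to 19092 to 44410 CPM in Chat-neg and 32785 to 54097 CPM in Chat-pos. Most of this was Fabp1, and the sum exceeded that of the tuft cell markers in every library. Each of the other enterocyte markers was at 4540 CPM or less in every library. A sum over different genes does not measure the share of a cell type. The 7 goblet cell markers summed to 456 to 5398 CPM in Chat-neg and 302 to 1543 CPM in Chat-pos. The tuft cell marker sum was lower in Chat-neg. Reads on 1461 olfactory and vomeronasal receptor genes were taken as background. They stood at 4187, 804, 387 and 614 per 1000000 counts in Chat-neg 1 to 4 and at 155 to 292 in Chat-pos. As counts they were 367, 630, 456 and 375 in Chat-neg 1 to 4 and 513, 415, 376 and 394 in Chat-pos 1 to 4. The counts overlapped between the groups, whereas the share was higher in all Chat-neg libraries, which had fewer counts in named genes. The part of Ptprc-expressing cells, of the other cell types and of tuft cell purity in the results was not tested. With the background subtracted, the 10 genes remained called and Ifih1 joined them, beside 5.39% of all genes.

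The rest of the pathway was described by 88 further genes, from the interferons to other induced genes. Of these 88 genes 63 were tested, of which 2 were higher and 0 lower, a share near the 3.62% called higher among all genes. Their median log2 difference was 0.27, and 45 of the 63 (71.4%) were positive, against 48.5% of all genes tested. In 12 of the 63 every Chat-pos library lay above every Chat-neg library, against 9.23% of all genes tested. The reverse held in 1, against 4.72%. None of the 10 interferon genes examined passed the filter. They had 10 counts in all, of 11536268, and 5 of them were at 0 in every library, which allows up to 0.26 CPM each over the pooled libraries (3 counts, counting error only). By counts, Ifna4 had 3 and Ifnb1 had 1, all in Chat-neg, and Ifng had 3 and Ifna5 had 2, all in Chat-pos. None of the 6 receptor genes was called, with a median of 0.01. The most abundant were Il10rb at 0.47 ± 0.22 and Ifngr2 at -0.51 ± 0.25. The subunits of the type I receptor lay apart, Ifnar2 at 0.85 ± 0.28 and Ifnar1 at -0.67 ± 0.37, and neither was called (edgeR adjusted p = 0.0662 and 0.318).

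The kinases and STATs had a median of 0.00 over 5 genes, and 0 were called. Jak1 stood at 131 ± 14.0 CPM in Chat-neg and 155 ± 19.3 CPM in Chat-pos (mean ± SD, n = 4), and Jak2 at 64.6 ± 32.6 and 112 ± 8.56 CPM with a log2 difference of 0.58 ± 0.23. Of 5 tested brakes on signalling, 1 was higher: Trim24, a cofactor that restrains interferon signalling in mouse liver, at 109 ± 20.3 CPM in Chat-neg and 180.3 ± 19.0 CPM in Chat-pos, with a log2 difference of 0.64 ± 0.20 (edgeR adjusted p = 0.0475). Ptpn6, the phosphatase SHP-1, had non-overlapping groups at 0.62 ± 0.21 and was not called (edgeR adjusted p = 0.0722). No adaptor or kinase of the sensors was called (0 of 7 tested), with Trim25 at 0.27 ± 0.19 and Mavs at 0.14 ± 0.25, and no other IRF (0 of 4 tested), with Irf2 at 0.06 ± 0.21.

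Of 46 further interferon-stimulated genes, 36 were tested and 1 was higher, with a median log2 difference of 0.34. The called gene was Apol9a, an apolipoprotein L gene, at 20.7, 21.0, 27.0 and 32.6 CPM in Chat-neg 1 to 4 and at 56.8, 51.5, 46.0 and 44.7 CPM in Chat-pos 1 to 4. Its groups did not overlap, with a log2 difference of 0.89 ± 0.27 (edgeR adjusted p = 0.0427). The most abundant were Lgals3bp, a secreted glycoprotein, at 0.68 ± 0.22 with non-overlapping groups (edgeR adjusted p = 0.0579), and Lgals9, a galectin, at 0.14 ± 0.26. The calls of Trim24 and Apol9a were both lost under total count scaling and without the libraries with Paneth cell transcripts. With 1 library left out, Trim24 kept its call without Chat-neg 1 or Chat-pos 1 only, at log2 differences of 0.59 to 0.74 over the 8 fits, and Apol9a without Chat-neg 1 only, at 0.79 to 1.05.

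**Figure D5:**
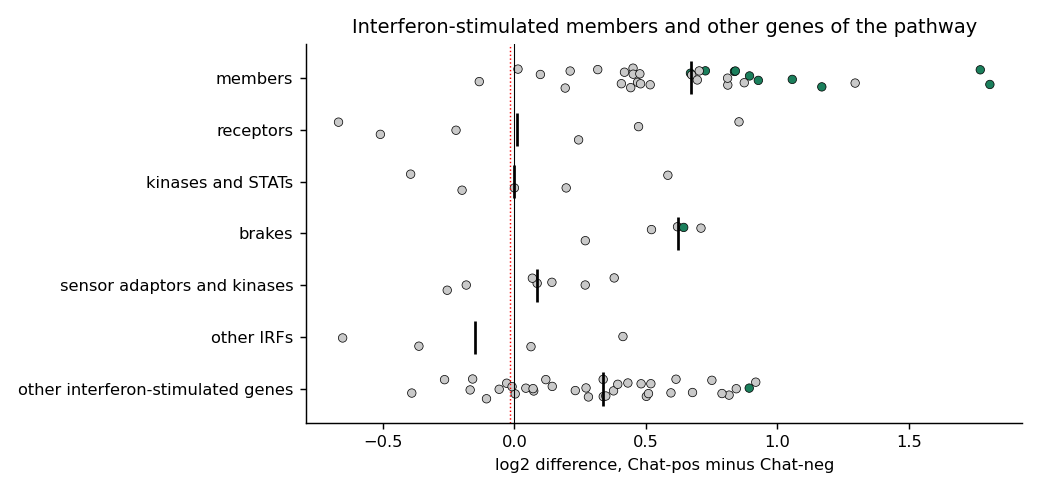
Log2 difference of each tested member and of each tested other gene of the interferon pathway, by class, with a bar at the class median, green points for an adjusted p under 0.05 and a dotted line at the median of all genes. The members lie mostly between 0.2 and 1.2 with a median of 0.67, the 36 other interferon-stimulated genes have a median of 0.34, and the receptors and kinases centre near 0.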

How the data were processed

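RNA-seq was made from sorted tuft cells with SMARTer v4 and Nextera XT, single reads of 74 cycles, per the labels' protocols. Such libraries hold neither strand nor molecular identifiers. The deposited values are raw counts per gene symbol. Per the submitters' processing notes the genome build was GRCm38, with the aligner, counter and gene models not given in the sources used here. Rows without a gene name, 36 in number, held 58.6% to 88.4% of a library's counts and were left out of library sizes and tests, and rows that shared a symbol were summed.

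Counts of named genes were tested with edgeR 4.0.16 (R 4.3.3): TMM factors, the filterByExpr filter, and a quasi-likelihood model of group alone with robust dispersion, with Benjamini-Hochberg values over 8919 genes at a threshold of 0.05. The 95% intervals are 1.96 SE either side. The fit was tested on simulated data. No pair of libraries of a group agreed within counting noise. The members, the further pathway genes, the markers and the alternatives were chosen with earlier results of these data known. Library values are given for called members and for the 2 most abundant of each role, and other pathway genes are named if called or among the 2 most abundant of their class; Ifnar1, Ifnar2, Ifng, Ifna5 and Ptprc were named after their values were seen, and some genes under this rule are not reported here. Mb21d1 was matched as Cgas. Positions and exon lengths came from GENCODE M21 (GRCm38) and promoters from RefSeq (GRCm38.p6). The result was recomputed with other tools (DESeq2 1.42.0, limma-voom 3.58.1 with quality weights), other scaling (RLE, upper quartile, totals), other filters (none, or at least 5 CPM in 4 libraries), the replicate number as a block, background subtracted, and libraries left out. Sums without Isg15 or Gbp8 were added after seeing the data.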

Additional observations from a re-analysis of the deposited data

Results flagged for a closer look

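In 8 of 68 groups of 4 libraries examined, the highest or lowest library stood apart from the other 3 by more of the range than Dixon's 95% critical value allows. Chance flags about 1 in 20 groups. In Chat-neg, replicate 1 was the library that stood apart in each case: Ddx58 was at 10.4 CPM there (1 count) and at 48.1 to 49.7 CPM in the other Chat-neg libraries, Oasl2 at 93.2 CPM (9 counts) against 219 to 226 CPM, Ifi27 at 93.2 CPM (9 counts) against 255 to 270.4 CPM, and Isg20 at 20.7 CPM (2 counts) against 1.55 to 3.37 CPM.

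In Chat-pos, replicate 1 was high for Zbp1, at 84.3 CPM against 57.2 to 60.8 CPM, and low for Isg20, at 4.28 CPM against 9.75 to 10.6 CPM. Replicate 2 was high for Gbp8, at 48.4 CPM against 29.0 to 31.6 CPM, and low for the summed GTPase genes, at 165 CPM against 192 to 197 CPM. Gbp8 thus stood highest in the library whose other GTPase genes summed to the lowest value of its group.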

How the results depend on the processing

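With all 8 libraries, the count of members called higher stayed between 7 (total count scaling, beside 2.52% of all genes) and 11 (limma-voom, which added Zbp1, beside 3.52%, and background subtraction, beside 5.39%) under every scaling, filter, tool and block tried, and 0 were called lower in any of them or in any fit with libraries left out. With no filter it was 9, beside 1.05%. It was 2 to 11 with 1 library left out and 6 without both Paneth-rich libraries, where fewer samples entered the fit. The other pathway genes called higher, 2 in the main result, were 7 after background subtraction, 1 with the 5 CPM filter, 4 with upper-quartile scaling, 0 with total count scaling, 0 without both Paneth-rich libraries and 0 to 4 with 1 library left out. All genes called higher ranged from 138 to 360 with 1 library left out. All genes called lower, 256 in the main result, ranged from 110 to 309 with 1 library left out, and were 143 with no filter and 86 without both Paneth-rich libraries. The GTPase median of 0.59 was 0.88 without both Paneth-rich libraries and 0.40 to 0.85 with 1 library left out. The cause of these shifts was not tested.

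Whether equal replicate numbers mark paired samples is not known. The correlations of same-numbered deviations were 0.053, 0.033, -0.023 and -0.010, and those of differently numbered ones ran from -0.076 to 0.099. All of these are small, and in libraries of such unequal depth they cannot settle the question. With the replicate number as a block 8 members were called, without Irf1 and Irf7, beside 3.25% of all genes, and 0 other pathway genes. Depth limits what Chat-neg 1 can show, and 8 of the 40 genes were too low to test.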
